A study of Mus musculus with 18 samples.

Results

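The effect of 1 allele of the Fgfr2 S252W mutation on RNA levels was examined in the mandibular condylar cartilage of mouse embryos at E16.5. The 6 libraries whose labels name that tissue were used, of 18 in the series, with 3 from heterozygous Fgfr2+/S252W embryos (labelled Fgfr2S252W, Apert syndrome) and 3 from Fgfr2+/+ littermates (labelled WT, control). All were female, of strain C57BL/6 by label, and had received no treatment named in the labels. The condyle was cut from sections of each embryo by laser capture microdissection, each library held the tissue of 1 embryo without pooling named in the labels, and the RNA was amplified before sequencing. The other 12 libraries were Meckel's cartilage (MC) and mandibular bone of the same 2 genotypes. No promoter or Cre that would limit the mutant allele to cartilage is named in the sources used here, so the genotype of the condyle and of its surroundings cannot be told apart. With 3 libraries a side, p-values measure the spread between these libraries alone, and an exact two-sided permutation test of 1 gene could not give a p below 0.1.

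The condylar cartilage is a secondary cartilage. It forms on the membrane bone of the jaw from a layer of perichondrial progenitors, and it drives growth of the mandibular ramus by endochondral ossification. In such a cartilage progenitors divide, become chondrocytes that lay down type II collagen and aggrecan, and enlarge into hypertrophic chondrocytes that make type X collagen and pass the matrix on to bone. Indian hedgehog from prehypertrophic cells and parathyroid hormone-related protein set the pace of this sequence. FGF receptors are tyrosine kinases that act through RAS and ERK. FGFR3 restrains chondrocyte division, FGFR2 is known mainly from the progenitors of perichondrium and bone, and S252W changes the ligand binding of FGFR2 so that it responds to more FGFs.

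The reference sequence around the mutated codon is shown because every Fgfr2+/S252W library carries the change on 1 of its 2 alleles. The serine of mouse FGFR2 that S252W replaces is encoded on the minus strand of chr7, at chr7:130201166-130201168 of mm10, in exon 6 of the GENCODE transcript Fgfr2-202, and 4 coding transcripts number this residue as the allele does. The exon's first 27 coding bases, chr7:130201147-130201173, are given 5′ to 3′ with the serine codon in capitals.
Fgfr2 window: aacggTCAccacaccggcccatcctcc
In the mutant allele tryptophan takes the place of this serine, close to the junction with the preceding exon. The deposited counts sum both alleles, so the share of mutant transcript was not analysed here.

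Between 8768399 and 12772454 fragments were counted per Fgfr2+/S252W library and between 10308771 and 10743134 per Fgfr2+/+ library. Mitochondrial genes took 23.6% to 27.7% of the counts in Fgfr2+/S252W and 19.4% to 23.6% in Fgfr2+/+ libraries, with Wilson 95% intervals of at most 0.0296 percentage points either side, which cover counting error only. The genotypes were only narrowly apart in this share, at 23.62% in the lowest mutant and 23.55% in the highest littermate library. A fit without the mitochondrial genes and Gm42418, a gene model that overlaps ribosomal RNA, also passed 0 genes, with 487 at an unadjusted p below 0.05, and the median of each list kept its sign. Fgfr2+/S252W replicate 3 stood apart from the other libraries: its mean correlation with the other 5 was 0.937, against 0.953 to 0.959 for the rest, and the first principal component, 38.4% of the variance, placed it at 67.4, Fgfr2+/+ replicate 3 at 19.1 and the other 4 between -27.8 and -13.2. Both replicates 3 were also highest of their genotype for the osteoblast genes described further on. Gm42418 took 20.2% of the counts in mutant replicate 3 and 20.1% in littermate replicate 3, against 10.9% to 14.3% in the other 4. Mutant replicate 3 also had the fewest fragments, 8768399. Values without these 2 libraries are given beside many of the lists and genes below.

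The condylar libraries held the genes of their labelled tissue. The 18 listed genes of cartilage matrix summed to 8079.9 to 11384 FPKM (fragments per kilobase of exon, scaled to the counted fragments of the library) in the 6 condylar libraries, against 199.9 to 1899.7 in MC and 263 to 512 in bone. Of the 6 libraries labelled MC, 5 held 199.9 to 539 FPKM, a range that overlaps that of bone. FPKM are scaled to all counted fragments, of which Gm42418 took 24.1% to 39.4% in MC and 5.58% to 9.33% in bone. A larger share for 1 gene lowers the FPKM of all others. These sums therefore do not show that MC held as little cartilage RNA as bone, and what tissue the MC libraries held was not tested. Col2a1, the main collagen of cartilage, averaged 4736 FPKM in the condyle. Hypertrophic genes summed to 3075 to 6219 FPKM, below the 6315 to 8667 FPKM of bone and above the 34.4 to 436 of MC, and type X collagen (Col10a1) averaged 812 FPKM. Osteoblast genes, which hypertrophic chondrocytes share in part (Runx2, Ibsp, Spp1 and Alpl are on both lists), summed to 5218 to 11088 FPKM in the condyle and 16062 to 29927 in bone. Markers of other cells differed in level. Smooth muscle and pericyte genes summed to 129.8 to 188 FPKM and nerve and glial genes to 3.15 to 6.12, in each case above every bone library (56.6 to 77.6 and 1.03 to 2.55 FPKM). Red cell genes summed to 34.8 to 301 FPKM, against 591 to 2450.0 in bone, and skeletal muscle genes to 3.30 to 76.6, against 3.12 to 164. Macrophage genes summed to 3.41 to 10.3 FPKM, against 221 to 322 in bone, and endothelial genes to 4.51 to 10.9, against 78.7 to 119.7. All 6 epithelial genes, Epcam and Krt8 the highest of them, stayed under 1 FPKM in all 6 libraries. In bulk tissue, fewer cells of a type cannot be told apart from less RNA per cell.

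**Figure D1:**
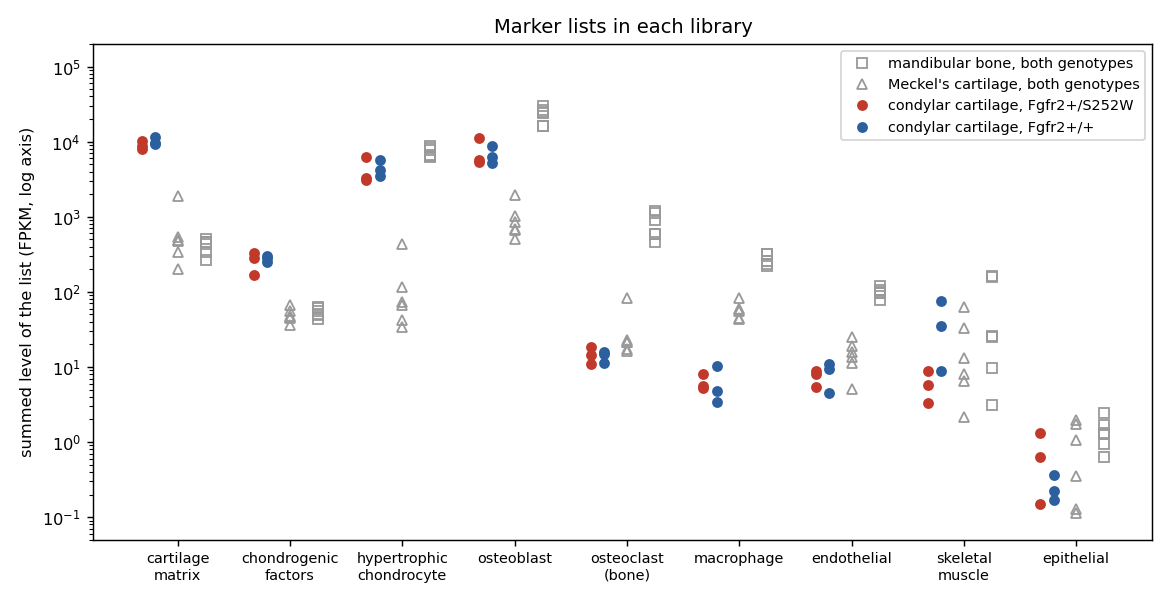
Summed level of each marker list per library, in FPKM on a log axis, with condylar cartilage in filled circles (red for Fgfr2+/S252W, blue for Fgfr2+/+) and MC (triangles) and mandibular bone (squares) in grey. Cartilage matrix genes range from 8079.9 to 11384 FPKM in all 6 condylar libraries, above every MC and bone library.

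In the comparison of all 6 libraries with limma, no gene differed between mutant and littermate condylar cartilage past the threshold. Of 11631 genes tested, 0 (0%) had a Benjamini-Hochberg adjusted p below 0.05, and the smallest adjusted p was 0.998. Before adjustment, 452 genes (3.89%) had p below 0.05, fewer than the 582 expected if no gene differed. The 452 had a higher mean in the mutant for 201 (1.73%) and a lower mean for 251 (2.16%). With upper-quartile factors in place of TMM, 147 of 460 such genes had a higher mean. edgeR's quasi-likelihood test passed 0 genes, with 461 at an unadjusted p below 0.05, and DESeq2 passed 1 gene, the skeletal muscle gene Mylpf, with 424. Leaving out both replicates 3, a fit added after seeing the data, passed 2 genes, with 1082 at an unadjusted p below 0.05. Taking equal replicate numbers as pairs, which the labels do not state, passed 6 genes, with 754. The 3 libraries of one genotype lay wholly above or below the 3 of the other in 1190 genes (10.2%), higher in the mutant for 564 (4.85%) and lower for 626 (5.38%). With 3 libraries a side, a gene without any effect separates in this way with a probability of 0.1. Over all genes the median log2 fold change was -0.010, and 48.3% of genes were above 0.

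The same numbers show the precision of the comparison. The median gene had a within-genotype SD of 0.32 on the log2 scale and a 95% interval of 0.59 either side of its fold change, and edgeR's biological coefficient of variation was 0.253. An estimated fold change above 2 in either direction was found in 453 genes, of which 186 had libraries that did not overlap. Fold changes, SEs and intervals of single genes are limma's on the log2 scale, mutant over littermate, from the 6 libraries. No gene had an adjusted p below 0.998 in that fit, so none of these differences passed.

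**Figure D2:**
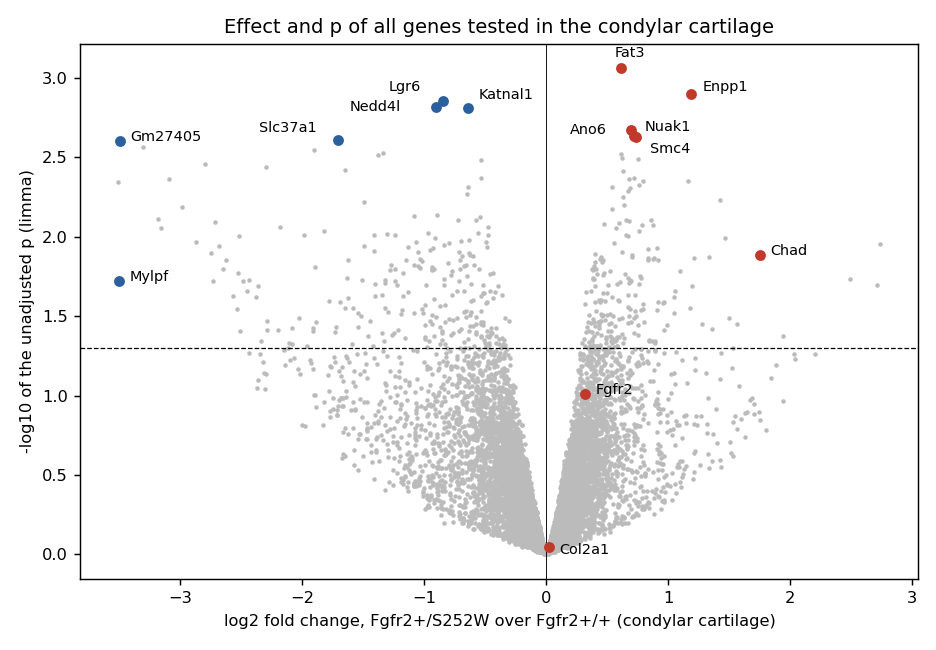
Each point is 1 of the 11631 genes tested, with the log2 fold change of Fgfr2+/S252W over Fgfr2+/+ condylar cartilage on the x axis and -log10 of the unadjusted p on the y axis (dashed line, p of 0.05). Fat3 and Enpp1 are the highest points on the right, at p of 0.000873 and 0.00127, and no point passed after adjustment.

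Fgfr2 itself (ENSMUSG00000030849, chr7:130162451-133123350, minus strand) was counted at 121, 165 and 169.9 CPM in the Fgfr2+/S252W libraries and 114, 111 and 135 CPM in the Fgfr2+/+ libraries, where CPM are fragment counts scaled to library size with TMM factors. The genotypes overlapped, with a difference that did not pass (log2 fold change 0.32, SE 0.17, 95% CI -0.070 to 0.71). On the per-length scale it averaged 25.8 FPKM, below Fgfr3 (75.8 FPKM) and Fgfr1 (48.1 FPKM). Fgfr3, the receptor that slows chondrocyte division, stood at 347, 300.3 and 249 CPM in the mutant and 406, 396 and 341 CPM in littermates. All but the highest mutant library lay below all 3 littermate libraries (log2 fold change -0.36, SE 0.16, 95% CI -0.71 to -0.0020). Fgfr1, a receptor of perichondrium, osteoblasts and hypertrophic cells, spread widely within each genotype, at 157, 254 and 657 CPM and 155, 139 and 343 CPM, with replicate 3 the highest in both.

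Among genes that report on FGF signalling, Etv5 and Ccnd1 had p below 0.05 with a higher and Fgfr3 with a lower mean in the mutant, before adjustment. These are 3 of 11 genes, beside 3.89% of all genes at that p (1.73% higher and 2.16% lower). Of 19 listed receptors, feedback inhibitors and ERK targets, 11 passed the filter on low levels and 0 passed the test, with 8 above 0 and a median log2 fold change of 0.13, beside -0.010 over all genes. The list median was -0.029 without littermate replicate 2, with 5 of 11 above 0, 0.31 without littermate replicate 1 and 0.25 without both replicates 3. Etv5, an ETS transcription factor induced by ERK, was at 20.7, 33.1 and 26.4 CPM in the mutant and 18.3, 5.12 and 14.5 CPM in littermates, and the genotypes did not overlap (log2 fold change 1.21, SE 0.40, 95% CI 0.31 to 2.12). The lowest of its 6 values was that of Fgfr2+/+ replicate 2. Ccnd1, the cyclin D1 of cell cycle entry, was at 48.4, 63.1 and 62.8 CPM and 37.3, 23.3 and 53.9 CPM, with overlap (log2 fold change 0.67, SE 0.27, 95% CI 0.058 to 1.29). The ERK phosphatases Dusp4, Dusp5 and Dusp6, the feedback inhibitors Spry1, Spred3 and Il17rd, and Etv1 and Etv4 were under the filter, Dusp6 at 13 to 39 fragments per library. Spry2 and Spry4, inhibitors of RAS activation, were kept at 1.76 and 1.08 FPKM with log2 fold changes of 0.13 (95% CI -0.76 to 1.03) and -0.54 (95% CI -1.74 to 0.67). None of the 9 listed FGF ligands and binding proteins passed the filter, and together, Fgf1 and Fgf2 ahead, they summed to 0.815 to 2.0 FPKM, against 8.85 to 12.8 in bone and 9.31 to 13.3 in MC.

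The 10 genes with the smallest p were 5 with a higher and 5 with a lower mean in the mutant, and none of them passed the adjusted threshold. Fat3 (ENSMUSG00000074505, chr9:15910205-16378231, minus strand), an atypical cadherin, came first of all genes. It was at 238, 257 and 257 CPM in Fgfr2+/S252W and 174, 159 and 157 CPM in Fgfr2+/+ libraries, a narrow spread within each genotype (log2 fold change 0.62, SE 0.13, 95% CI 0.32 to 0.91). Enpp1 (ENSMUSG00000037370, chr10:24637914-24712158, minus strand), the ectoenzyme that makes pyrophosphate, an inhibitor of mineralization, came second. Its levels were 98.4, 96.0 and 196 CPM in the mutant and 55.5, 47.1 and 57.0 CPM in littermates, so that all 3 mutant libraries lay above all 3 others (log2 fold change 1.19, SE 0.27, 95% CI 0.59 to 1.78). Replicate 3 of the mutant was the highest by far, and without both replicates 3 the log2 fold change was 0.91. Ano6, a phospholipid scramblase and ion channel, was at 142, 148 and 142 CPM and 102, 70.9 and 98.4 CPM (log2 fold change 0.69, SE 0.17, 95% CI 0.32 to 1.07). Nuak1, an AMPK-related kinase, was at 62.0, 67.7 and 80.5 CPM and 36.6, 41.8 and 48.8 CPM, again without overlap (log2 fold change 0.72, SE 0.18, 95% CI 0.32 to 1.11). Smc4, a core subunit of condensin that packs chromosomes for division, was at 50.4, 61.7 and 66.2 CPM and 32.2, 41.1 and 33.0 CPM (log2 fold change 0.73, SE 0.18, 95% CI 0.33 to 1.14).

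In the other direction, Lgr6 (ENSMUSG00000042793, chr1:134986348-135105276, minus strand), a receptor for the Wnt agonists R-spondins, was at 24.3, 18.9 and 29.6 CPM in the mutant and 42.5, 40.7 and 44.0 CPM in littermates (log2 fold change -0.85, SE 0.19, 95% CI -1.28 to -0.42). The littermate values were close together and the highest mutant value stayed below them. Nedd4l, a ubiquitin ligase, was at 12.5, 12.6 and 17.3 CPM and 22.7, 27.4 and 27.1 CPM (log2 fold change -0.90, SE 0.21, 95% CI -1.37 to -0.44). Katnal1, a subunit related to the microtubule-severing katanin, was at 68.9, 61.0 and 76.3 CPM and 103, 107 and 110.1 CPM (log2 fold change -0.64, SE 0.15, 95% CI -0.97 to -0.31). Slc37a1, a sugar-phosphate antiporter, was at 4.27, 2.30 and 1.16 CPM and 7.33, 7.91 and 10.3 CPM (log2 fold change -1.71, SE 0.42, 95% CI -2.65 to -0.76). Its counts were low, at 58, 24 and 8 fragments against 89, 85 and 103. Gm27405, a gene model of 112 bases of exon, had 0, 0 and 0 fragments in the mutant libraries against 4, 7 and 7, which is at least 5.63-fold lower against a floor of 3 fragments over the group. It was kept by the filter on its littermate libraries alone. The other 9 genes are plotted by library with Fgfr2.

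**Figure D3:**
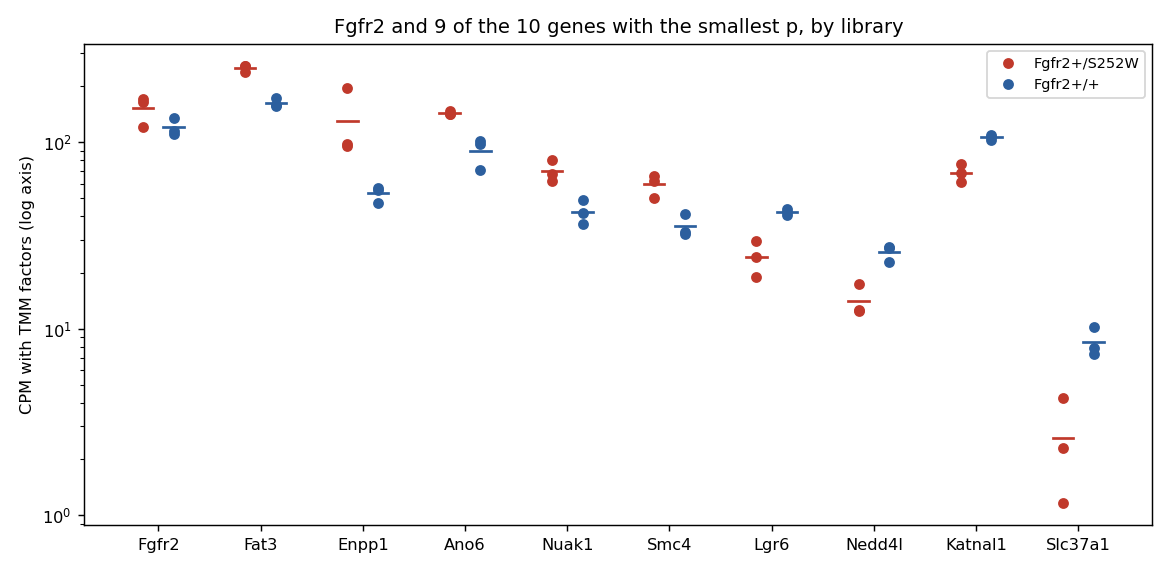
CPM with TMM factors in each condylar library, on a log axis, for Fgfr2 and 9 of the 10 genes with the smallest p; points are libraries (red Fgfr2+/S252W, blue Fgfr2+/+) and bars are means of 3. The genotypes overlap for Fgfr2 alone among these genes, and Enpp1 has 1 mutant library, at 196 CPM, above the other 2.

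The most abundant genes of the cartilage matrix had estimates near 0, and the list as a whole spanned -0.52 to 1.75. Of 18 listed matrix genes, 17 were kept and 0 passed, 8 of them above 0, with a median log2 fold change of -0.079. That median stayed below 0 in every alternative run, from -0.14 with the length adjustment, and -0.13 with quality weights, to -0.029 without littermate replicate 1. Col2a1 was at 23464, 21598 and 28819 CPM in the mutant and 23778, 22398 and 26379 CPM in littermates, a log2 fold change of 0.021 (95% CI -0.32 to 0.37). Hapln1, the link protein that ties aggrecan to hyaluronan, was second highest per length, at 1782 FPKM, with -0.14 (95% CI -0.49 to 0.21). Aggrecan itself (Acan) had -0.22 (95% CI -0.70 to 0.26). The intervals of these 3 genes lay within 1 log2 unit of 0 on either side. Col9a2, a chain of the type IX collagen on the fibril surface, was at 211, 178 and 206 CPM in the mutant and 250.3, 256 and 242 CPM in littermates, and the genotypes did not overlap (log2 fold change -0.33, SE 0.13, 95% CI -0.64 to -0.034). Its partner chains were Col9a3 at -0.39 (95% CI -0.89 to 0.11) and Col9a1 at 0.035 (95% CI -0.35 to 0.42).

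The matrix gene with the smallest p was Chad, the integrin-binding chondroadherin. It was at 47.7, 102 and 249 CPM in the mutant and 21.2, 22.7 and 61.3 CPM in littermates. Within each genotype replicate 3 was the highest, and the lowest mutant library lay below the highest littermate library (log2 fold change 1.75, SE 0.58, 95% CI 0.46 to 3.04). Without both replicates 3 its log2 fold change was 1.64. Among 8 chondrogenic transcription factors, 5 were kept and 0 passed, with a median of -0.073, which was 0.14 without mutant replicate 3 and 0.17 without both replicates 3, with 3 of 5 above 0 in each. Sox9, which switches on the matrix genes, was at 547, 395 and 290.1 CPM and 386, 439.7 and 450.3 CPM, or -0.085 (95% CI -0.56 to 0.39) on the log2 scale. Its partners Sox5 and Sox6 had 0.10 (95% CI -0.63 to 0.84) and 0.11 (95% CI -0.26 to 0.48). Trps1, a repressor of the growth plate, had the narrowest interval of the list, -0.073 (95% CI -0.34 to 0.19). Barx1, a homeobox factor of jaw mesenchyme, had the smallest p of the group (log2 fold change -0.37, SE 0.23, 95% CI -0.89 to 0.15).

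Hypertrophic genes divided about evenly around 0. All 13 were kept and 0 passed, 6 of them above 0, with a median log2 fold change of -0.012, which was 0.24 without mutant replicate 1, 0.19 without mutant replicate 2 and 0.33 without littermate replicate 3. It was 0.16 in DESeq2 and 0.16 in edgeR. Col10a1 was at 1147, 1674 and 3517 CPM in the mutant and 2419, 2331 and 4639 CPM in littermates. In each genotype replicate 3 was the highest, and the 2 other mutant libraries lay below all 3 littermates (log2 fold change -0.65, SE 0.39, 95% CI -1.52 to 0.21). Leaving out both replicates 3 gave -0.79. Panx3, a channel of prehypertrophic cells, had the estimate nearest 0, at -0.012 (95% CI -0.30 to 0.28). Ibsp, the bone sialoprotein of mineralizing matrix and the highest of the list per length, was at 2326, 2614 and 9809 CPM and 3178, 2592 and 6345 CPM and had 0.074 (95% CI -1.07 to 1.21). Mmp13, the collagenase of the last hypertrophic cells, varied widely between libraries, at 6.25, 31.4 and 115 CPM and 14.1, 7.35 and 20.9 CPM.

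The hedgehog and PTHrP loop had 8 of 10 genes kept, 0 passing, 5 above 0 and a median of 0.15. That median was -0.024 without littermate replicate 2, with 3 of 8 above 0, 0.026 without mutant replicate 3 and 0.46 without littermate replicate 3. The ligand Ihh was at 64.2, 63.0 and 122 CPM in the mutant and 73.4, 72.1 and 124 CPM in littermates, a log2 fold change of -0.16 (95% CI -0.81 to 0.49). Pthlh, which encodes PTHrP, had 0 to 14 fragments per library and was under the filter, while its receptor Pth1r was the highest of the list per length, at 210.2 FPKM with -0.19 (95% CI -0.64 to 0.25). Ptch1, the hedgehog receptor and target, had 0.33 (95% CI -0.19 to 0.85). Gli3, a transcription factor that acts mainly as a repressor of hedgehog targets, was at 84.8, 99.1 and 78.2 CPM in the mutant and 72.7, 53.0 and 70.4 CPM in littermates without overlap (log2 fold change 0.43, SE 0.18, 95% CI 0.034 to 0.82).

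Among genes of pyrophosphate and phosphate, Enpp1 and Ank were higher in all 3 mutant libraries than in any littermate library, and neither passed. Of 9 listed, 8 were kept and 0 passed, 3 above 0, with a median of -0.069. The median was above 0 in DESeq2 (0.060) and edgeR (0.057), and without mutant replicate 1 (0.064), mutant replicate 2 (0.093) or littermate replicate 3 (0.13). Ank (chr15:27466677-27594909, plus strand), which exports pyrophosphate and ATP, was at 20.7, 25.1 and 33.7 CPM in the mutant and 19.2, 12.6 and 18.2 CPM in littermates. The lowest mutant value was just above the highest littermate value (log2 fold change 0.62, SE 0.25, 95% CI 0.064 to 1.17). With Enpp1, it makes 2 of the 8 kept members with p below 0.05 and without overlap, both higher, beside 1.73% of all genes higher at that p and 4.85% higher without overlap. The study had already named Enpp1 and Ank as upregulated in mandibular bone of this series. Their place on this list is therefore no independent evidence. Xpr1, the phosphate exporter, had 0.21 (95% CI -0.22 to 0.65). Enzymes that remove pyrophosphate or release phosphate had estimates near or below 0. Alpl, the tissue-nonspecific alkaline phosphatase, was at 156, 196 and 702 CPM and 236, 199 and 492 CPM and had -0.064 (95% CI -1.21 to 1.08). Phospho1, the phosphatase of matrix vesicles, had -0.26 (95% CI -0.83 to 0.32), and the phosphate importers Slc20a1 and Slc20a2 had -0.12 (95% CI -0.61 to 0.37) and -0.27 (95% CI -0.86 to 0.33). Smpd3, the sphingomyelinase of matrix mineralization and the highest per length, had -0.073 (95% CI -0.39 to 0.24).

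Osteoblast genes were highest in replicate 3 of each genotype, and most of their estimates were above 0. Of 16 listed, 13 were kept and 0 passed, 11 above 0, with a median of 0.30. Summed over the list, the mutant libraries held 5435, 5761 and 11088 FPKM and the littermate libraries 6333, 5218 and 8660 FPKM, so that replicate 3 was the highest in both genotypes and the genotypes overlapped. Without both replicates 3 the median was 0.10, with 9 of 13 above 0. Leaving out 1 library at a time moved it from -0.027 to 0.47, with 5 to 13 members above 0, and the lowest median was that without mutant replicate 3. Col1a1, the main collagen of bone, showed the pattern, at 3023, 2829 and 9463 CPM and 2431, 2131 and 5645 CPM. Runx2, the master factor of osteoblasts, had the smallest p of the list (log2 fold change 0.30, SE 0.19, 95% CI -0.14 to 0.73), and Sparc, a collagen-binding matrix protein, was the highest per length with 0.15 (95% CI -0.43 to 0.74). The late osteoblast genes Bglap, Bglap2 and Mepe had 0 to 7 fragments in every library. What part the bone genes of replicate 3 had in any estimate was not tested.

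Perichondrial and tendon genes had 9 of 16 members kept and 0 passing, with 7 above 0 and a median of 0.26, which was 0.16 without littermate replicate 1. Tnc, the tenascin C of perichondrium and condensing mesenchyme, was at 405, 508 and 719 CPM in the mutant and 237, 247 and 419 CPM in littermates. Only the lowest mutant and the highest littermate library overlapped (log2 fold change 0.86, SE 0.26, 95% CI 0.28 to 1.44), and without both replicates 3 the value was 0.90. Col3a1, the type III collagen of fibrous tissue, was at 639, 630.4 and 553 CPM and 483, 493 and 514 CPM without overlap (log2 fold change 0.29, SE 0.13, 95% CI 0.0049 to 0.57). Lum, the collagen-binding lumican, was the highest of the list per length and also did not overlap, at 545, 471 and 536 CPM and 445, 411 and 436 CPM (log2 fold change 0.26, SE 0.13, 95% CI -0.025 to 0.55). Dcn, decorin, overlapped between genotypes at 0.97 (95% CI 0.062 to 1.87), and Col12a1, a collagen of fibril surfaces, had 0.076 (95% CI -0.49 to 0.64). The tendon markers Scx and Tnmd had 0 to 5 fragments.

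Proteases and their inhibitors had 10 of 15 genes kept, 0 passing, 7 above 0 and a median of 0.28, which was 0.11 without mutant replicate 3 and 0.47 without littermate replicate 3. Mmp2, a gelatinase, was at 236, 210.0 and 271 CPM in the mutant and 164, 162 and 217 CPM in littermates, with overlap (log2 fold change 0.40, SE 0.17, 95% CI 0.031 to 0.78). Its inhibitor Timp2 was at 147, 156 and 164 CPM and 108, 89.6 and 152 CPM (log2 fold change 0.45, SE 0.19, 95% CI 0.021 to 0.88), and Timp3 had -0.034 (95% CI -0.40 to 0.33). Of 8 ossification genes that the study picked in mandibular bone of this series, which makes them no independent evidence, 5 were kept and 0 passed, with 1 above 0 and a median of -0.18. The 1 above 0 was Chrdl1, an extracellular BMP antagonist, at 147, 138 and 327 CPM in the mutant and 88.8, 109.5 and 126 CPM in littermates without overlap (log2 fold change 0.79, SE 0.30, 95% CI 0.11 to 1.47). Leaving out both replicates 3 gave 0.52, and the list median was 0.36 without mutant replicate 3 and 0.071 without both, with 4 of 5 above 0. Mgp, matrix Gla protein, an inhibitor of calcification, was the highest per length and spread widely, at 168, 127 and 32.6 CPM and 133, 145 and 77.7 CPM.

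Growth factor pathways had no member past the threshold. BMP and TGF-β genes had 20 of 25 kept, 14 above 0 and a median of 0.13. Besides Chrdl1, Bmp4 and Bmp7 had p below 0.05, all 3 higher, which is 3 of 20 kept genes beside 1.73% of all genes. The median was 0.050 without littermate replicate 2 and 0.26 without mutant replicate 1. Bmp4, a ligand of perichondrium, was at 26.0, 34.7 and 68.5 CPM in the mutant and 22.1, 14.3 and 29.8 CPM in littermates (log2 fold change 0.85, SE 0.37, 95% CI 0.025 to 1.67), and Bmp7 at 71.4, 77.4 and 51.4 CPM and 55.2, 42.0 and 44.7 CPM (log2 fold change 0.50, SE 0.20, 95% CI 0.056 to 0.94), both with overlap. Bmp6, a ligand of hypertrophic chondrocytes and the highest of the list per length, had -0.18 (95% CI -0.68 to 0.33), and the receptor Bmpr2 had 0.24 (95% CI -0.086 to 0.57). Their target genes Id1 and Id3 had 0.16 (95% CI -0.37 to 0.69) and 0.068 (95% CI -0.36 to 0.49).

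Wnt genes had 12 of 20 kept, 8 above 0 and a median of 0.12, which was 0.32 without both replicates 3 and 0.012 without littermate replicate 2. Tcf7, a transcription factor and target of the pathway, was at 39.8, 55.3 and 38.7 CPM in the mutant and 26.5, 26.8 and 29.1 CPM in littermates, with a gap between the genotypes (log2 fold change 0.69, SE 0.19, 95% CI 0.26 to 1.11). Axin2, another target, was at 44.8, 57.1 and 68.6 CPM and 34.2, 35.9 and 66.0 CPM with overlap, and the secreted inhibitors Frzb and Wif1, the highest per length, had 0.015 (95% CI -0.59 to 0.62) and -0.076 (95% CI -0.63 to 0.47). In the IGF list 6 of 11 genes were kept, 3 above 0, with a median of 0.050, which was 0.13 without both replicates 3, -0.0016 without mutant replicate 1 and 0.30 without littermate replicate 3. Igf2r, which clears IGF2 to lysosomes, was at 641, 585 and 657 CPM in the mutant and 503, 388 and 505 CPM in littermates without overlap (log2 fold change 0.44, SE 0.15, 95% CI 0.11 to 0.77). Its ligand Igf2, at 831 FPKM the highest of the list, had 0.20 (95% CI -0.11 to 0.50).

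Cell cycle genes had the largest share of members above 0 of any list with 10 or more kept genes, in the limma fit of all 6 libraries. All 20 were kept, 0 passed, and 19 were above 0, against 48.3% of all genes, with a median of 0.38. In DESeq2 and edgeR the osteoblast list ranked higher, with 13 of 13 above 0 against 18 of 20 cell cycle genes. Without mutant replicate 1 it also did, with 13 of 13 against 18 of 19. Genes of 1 list are not independent replicates. Mki67, the proliferation marker, was at 52.5, 96.3 and 51.1 CPM in the mutant and 28.0, 35.2 and 67.6 CPM in littermates. The highest littermate library, replicate 3, was above 2 of the 3 mutant libraries (log2 fold change 0.67, SE 0.34, 95% CI -0.091 to 1.43). Top2a, the topoisomerase of dividing cells, was at 39.7, 53.6 and 29.5 CPM and 21.3, 26.6 and 37.0 CPM, also with overlap. Pcna, the sliding clamp of replication and the highest per length, had 0.11 (95% CI -0.49 to 0.72). Rrm2, a subunit of ribonucleotide reductase, was the only member without overlap, 1 of 20 beside 4.85% of all genes higher without overlap, at 12.6, 14.3 and 12.9 CPM and 8.57, 9.21 and 10.7 CPM (log2 fold change 0.49, SE 0.22, 95% CI 0.0081 to 0.98). Without both replicates 3 the list median was 0.71, with 20 of 20 above 0, and Mki67 was at 1.15. Leaving out 1 library at a time moved the median from 0.11 to 0.64, with 15 to 19 members above 0, lowest without littermate replicate 1 and highest without littermate replicate 3.

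Glycolysis and hypoxia genes lay on the other side, with 13 of 14 kept, 0 passing and 12 below 0, and a median of -0.18. Slc2a1, the glucose transporter of chondrocytes, was at 373, 207 and 145 CPM in the mutant and 349, 375 and 291 CPM in littermates (log2 fold change -0.57, SE 0.29, 95% CI -1.21 to 0.077). Ldha, lactate dehydrogenase and the highest of the list per length, was at 2371, 1875 and 952 CPM and 1819, 1929.6 and 1669.6 CPM. Gapdh, next in level, had -0.0084 (95% CI -0.44 to 0.42). For Slc2a1 and Ldha the lowest value was that of mutant replicate 3. Without both replicates 3 the median was -0.025, with 5 of 13 above 0. ER chaperone and stress genes had 13 of 13 kept, 0 passing, 12 below 0 and a median of -0.12, which became -0.027, with 3 above 0, without both replicates 3. Hsp90b1, the chaperone GRP94, had -0.0069 (95% CI -0.52 to 0.51), and Hspa5, the chaperone BiP, was at 1350.0, 837 and 521 CPM and 948, 1089.6 and 596 CPM. Manf, a secreted stress protein, had -0.50 (95% CI -1.23 to 0.23). Over the 6 fits that left out 1 library each, the medians went from -0.50 to 0.078 for glycolysis and -0.36 to 0.038 for ER genes, with a sign change for glycolysis without mutant replicate 3 and for ER genes without littermate replicate 2. Immediate early genes, which respond to handling and stress, had 5 of 8 kept, all 5 below 0, with a median of -0.30. Dusp1, a stress-induced phosphatase, was at 6.55, 5.09 and 28.7 CPM and 13.5, 12.2 and 18.6 CPM, and Egr1 at 4.56, 9.31 and 55.7 CPM and 23.2, 4.47 and 25.1 CPM, with mutant replicate 3 the highest in both genes. The median of this list became 0.095 without mutant replicate 1 and 0.039 without littermate replicate 3. It was also above 0 in DESeq2 (0.37), in edgeR (0.32), each with 4 of 5 above 0, and with the replicate number as a block (0.065). Leaving out both replicates 3 gave -0.66, with 0 of the 4 genes kept there above 0.

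**Figure D4:**
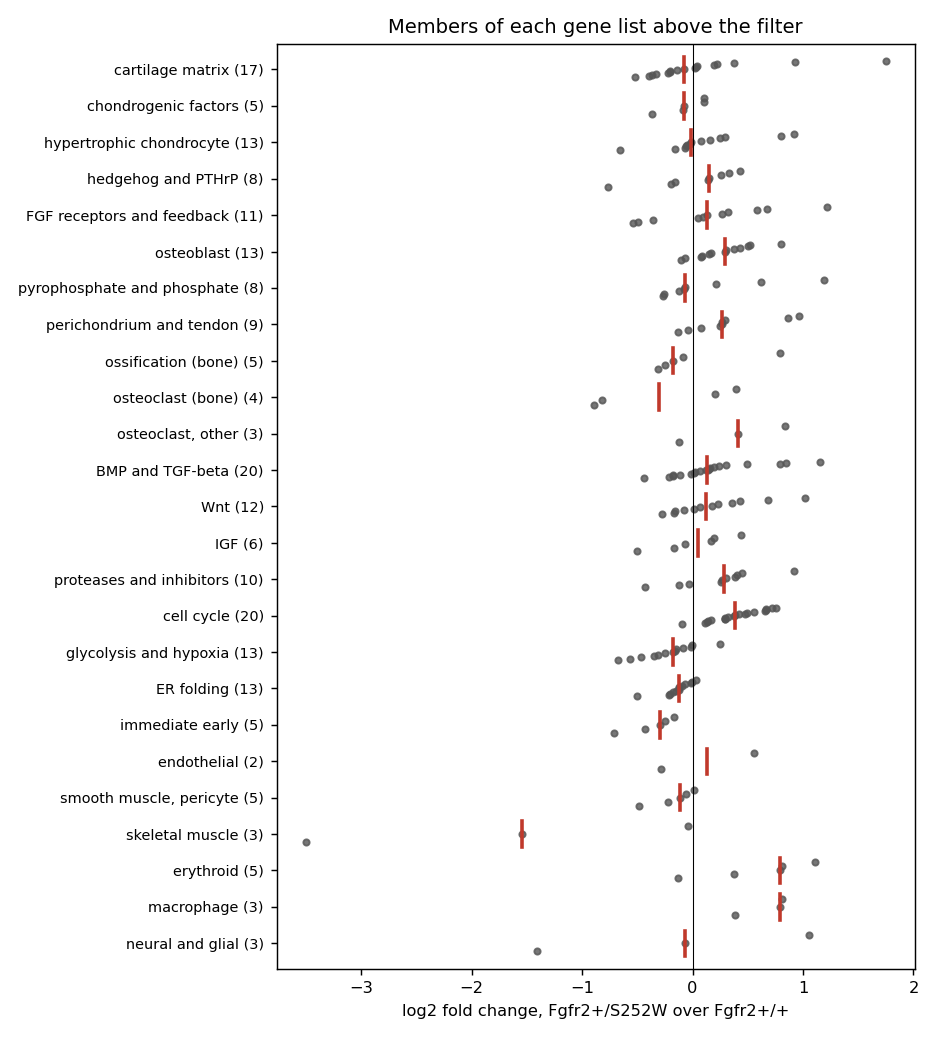
Log2 fold change of Fgfr2+/S252W over Fgfr2+/+ condylar cartilage for each list member above the filter (dots; number of members in parentheses) with the list median as a red bar. No gene shown passed the adjusted threshold; the cell cycle members lie above 0 except 1, and the skeletal muscle list holds the lowest value, Mylpf at -3.50.

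Osteoclast genes, which the study picked in mandibular bone of this series, summed to lower levels in the condyle than in bone. Of 8, 4 were kept and 0 passed, 2 above 0, with a median of -0.31, which was above 0 without mutant replicate 1 (0.045), littermate replicate 1 (0.21) or littermate replicate 3 (0.30), and without both replicates 3 (0.13). The list summed to 10.8 to 18.3 FPKM against 464 to 1179.7 in bone. Csf1r, the receptor of osteoclast precursors and macrophages, had 25, 40 and 45 fragments in the mutant libraries and 63, 58 and 81 in littermates, or 1.84, 3.84 and 6.53 CPM and 5.19, 5.40 and 8.07 CPM (log2 fold change -0.89, SE 0.44, 95% CI -1.86 to 0.083). Itgb3, the osteoclast integrin subunit, was at 3.24, 7.49 and 27.0 CPM and 5.11, 3.54 and 10.3 CPM (log2 fold change 0.40, SE 0.68, 95% CI -1.13 to 1.92), and Ctsk, the collagen-degrading cathepsin K, had 0.21 (95% CI -0.34 to 0.75). Of 8 further osteoclast genes and signals 3 were kept, with a median of 0.41, which was 0.22 without mutant replicate 2. Csf1, the ligand of CSF1R, was at 13.5, 11.1 and 28.9 CPM in the mutant and 10.5, 5.86 and 10.5 CPM in littermates without overlap (log2 fold change 0.83, SE 0.38, 95% CI -0.012 to 1.68), while the decoy receptor Tnfrsf11b had 0.41 (95% CI -0.22 to 1.04) and the transcription factor Nfatc1 -0.12 (95% CI -0.63 to 0.39). The ligand Tnfsf11 (RANKL) was under the filter, at 2 to 34 fragments per library.

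Marker genes of other cells were tested for the same contrast. Skeletal muscle genes summed to 3.30, 5.69 and 8.84 FPKM in the mutant libraries and 8.78, 35.4 and 76.6 FPKM in littermates, in ascending order. Of 13 listed, 3 were kept, all below 0, from -3.50 to -0.040, with a median of -1.54, and none passed in limma. In several other settings, among them the replicate block, quality weights and the length adjustment, 1 of the 3 was above 0. Over the 6 fits that left out 1 library each the median went from -1.96 to -0.56, closest to 0 without littermate replicate 3, and it was -0.77 without both replicates 3. Acta1, the skeletal actin, was under the filter at 3, 8 and 3 and 2, 95 and 294 fragments. Mylpf, a myosin light chain of fast muscle, had 5, 6 and 3 fragments in the mutant libraries and 20, 85 and 156 in littermates (limma log2 fold change -3.50, SE 1.25, 95% CI -6.29 to -0.71). DESeq2 gave it a log2 fold change of -4.19 with an adjusted p of 0.000148. Mylpf was kept by the filter on its littermate libraries alone, since all 3 mutant libraries were under 1 FPKM. Tnnt3, a fast troponin, was at 1.69, 1.63 and 0.290 CPM and 2.23, 3.72 and 4.58 CPM. In bone the same list summed to 3.12 to 26.2 FPKM in mutant and 24.7 to 164 FPKM in littermate libraries. Whether muscle RNA had a part in other differences was not tested.

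Nerve and glial genes had 3 of 6 kept, 0 passing, with a median of -0.068, around which the members spread widely. When 1 library was left out the median went from -1.08 to -0.037, lowest without mutant replicate 1, where 2 members were kept. It was above 0 with the replicate block (0.037) and in DESeq2 (0.0011), each with 2 of 3 above 0. Macrophage genes had 3 of 12 kept, all above 0, with a median of 0.79, which was 0.20 without littermate replicate 2 and 0.46 without mutant replicate 3. They were led by Cd68 at 1.80 and Lyz2 at 1.70 FPKM. Their sums overlapped, at 5.32 to 7.99 FPKM in the mutant and 3.41 to 10.3 in littermates, and C1qa had 0 or 1 fragment per library. Endothelial genes had 2 of 10 kept, Eng at 0.55 (95% CI -0.20 to 1.30) and Cdh5 at -0.29 (95% CI -1.39 to 0.81), with sums of 5.44 to 8.96 and 4.51 to 10.9 FPKM. Red cell genes had 5 of 8 kept, 4 above 0, with a median of 0.80. That median was -0.025 in DESeq2, -0.030 in edgeR and -0.36 without littermate replicate 1. It was 0.090 without mutant replicate 2, 1.79 without littermate replicate 3 and 1.63 without both replicates 3. The list spread widely within genotypes, with reads that globin paralogs may share, Hba-a1 at 13.5, 49.2 and 41.8 CPM and 2.64, 15.4 and 68.7 CPM and Hbb-bs at 23.2, 87.6 and 58.2 CPM and 11.2, 38.6 and 126 CPM. Smooth muscle and pericyte genes had 5 of 7 kept, 1 above 0, with a median of -0.11, which was 0.15 without both replicates 3 and 0.054 without littermate replicate 3 alone, and -0.27 and -0.52 without replicate 2 of the mutant or of the littermates. Most of their summed level was Cspg4, at 134 FPKM, a proteoglycan that chondrocytes also make, with -0.11 (95% CI -0.51 to 0.29). Acta2 and Tagln, actin and transgelin of contractile cells, had -0.059 (95% CI -0.97 to 0.86) and -0.48 (95% CI -1.35 to 0.39).

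Whether the genotype effect of the condyle differed from that of MC or bone was tested as an interaction in a fit of all 18 libraries. The libraries labelled MC held less cartilage matrix RNA by FPKM than any condylar library, and what tissue they held was not tested. This is therefore a comparison with those libraries as labelled. Of 11469 genes, 0 (0%) passed for condyle minus MC, with 1091 (9.51%) at an unadjusted p below 0.05, and 0 (0%) passed for condyle minus bone, with 344 (3%). edgeR's quasi-likelihood test also passed 0 in both, with 1141 and 284 at an unadjusted p below 0.05. In the same fit 10 genes (0.0872%) passed for mutant against littermate in bone. Pmp22, a myelin and growth arrest protein, 4833439L19Rik and Tmem230 had the 3 smallest unadjusted p against MC. Their adjusted p of 0.228 was the smallest, and genes with larger unadjusted p, Ano6 among them, had the same value. Pmp22 had log2 fold changes of -0.36 (95% CI -0.65 to -0.067) in the condyle and 0.64 (95% CI 0.31 to 0.98) in MC, a difference of -1.0 (95% CI -1.44 to -0.56). For 4833439L19Rik the difference was -1.08 (95% CI -1.56 to -0.60), and for Tmem230, an endosomal membrane protein, -1.97 (95% CI -2.85 to -1.10).

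Against bone, the ribosomal protein gene Rpl15 had the smallest adjusted p, 0.242. Its log2 fold change was 0.52 (95% CI 0.12 to 0.91) in the condyle and -0.89 (95% CI -1.25 to -0.54) in bone, a difference of 1.41 (95% CI 0.87 to 1.94). Tppp3, a tubulin-binding protein of connective tissue, had -0.16 (95% CI -0.75 to 0.43) in the condyle and -2.65 (95% CI -3.55 to -1.75) in bone, with an adjusted p of 0.582 for the difference. Penk, the enkephalin precursor, had -0.23 (95% CI -0.72 to 0.26) and -1.92 (95% CI -2.53 to -1.31), with an adjusted p of 0.673. None of the 3 differences passed.

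The pyrophosphate genes had estimates above 0 in all 3 tissues. Enpp1 was at 1.17 (95% CI 0.20 to 2.14) in the condyle, 0.60 (95% CI -0.74 to 1.94) in MC and 1.84 (95% CI 0.99 to 2.69) in bone, and the condyle differed from bone by -0.67 (95% CI -1.96 to 0.62), an interval that includes 0. Ank was at 0.61 (95% CI 0.071 to 1.15), 0.38 (95% CI -0.24 to 1.01) and 1.34 (95% CI 0.97 to 1.70), with an adjusted p of 0.00278 in bone, and its difference from bone was -0.73 (95% CI -1.38 to -0.075), with an adjusted p of 1. Xpr1 had 0.20 (95% CI -0.17 to 0.57) in the condyle, -0.60 (95% CI -1.0 to -0.20) in MC and 0.77 (95% CI 0.47 to 1.06) in bone. Csf1r had estimates of opposite sign, at -0.89 (95% CI -1.87 to 0.089) in the condyle and 0.94 (95% CI 0.53 to 1.36) in bone, a difference of -1.84 (95% CI -2.90 to -0.77) with an adjusted p of 1. Chrdl1 also had opposite signs, at 0.78 (95% CI 0.27 to 1.28) and -0.83 (95% CI -1.40 to -0.25), and a difference of 1.60 (95% CI 0.84 to 2.37) with an adjusted p of 0.673. In bone the limma adjusted p was 0.0933 for Enpp1, 0.0763 for Csf1r and 0.396 for Chrdl1, so none of them passed there. Fgfr2 had 0.31 (95% CI -0.21 to 0.82) in the condyle, -0.31 (95% CI -0.80 to 0.18) in MC and -0.024 (95% CI -0.50 to 0.45) in bone.

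**Figure D5:**
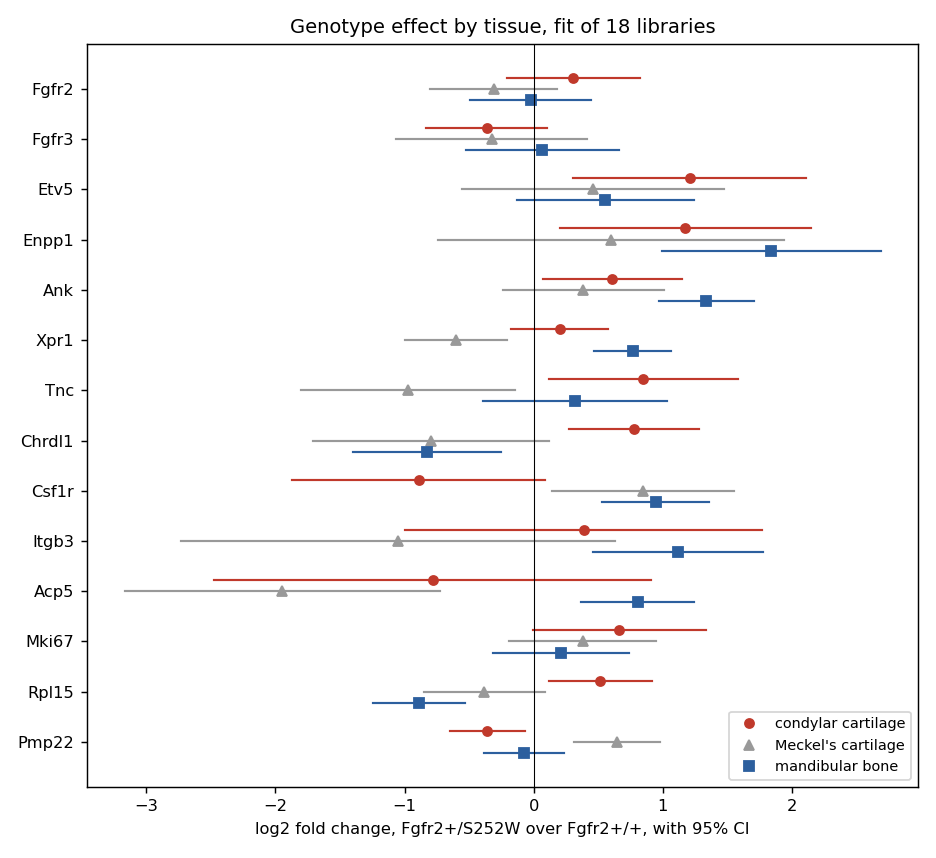
Log2 fold change of Fgfr2+/S252W over Fgfr2+/+ with its 95% interval in condylar cartilage (red circles), MC (grey triangles) and mandibular bone (blue squares), from 1 fit of 18 libraries. Enpp1 and Ank lie above 0 in each tissue, Csf1r is at -0.89 in the condyle and 0.94 in bone, and no difference between the condyle and another tissue passed the adjusted threshold.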

How the data were processed

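The deposited values are fragment counts per Ensembl gene, which the authors made by trimming with cutadapt, mapping to mm10 with STAR and counting with featureCounts 1.5.0-p1 on both strands, per the labels and the file headers. The counts were not normalized. Whether PCR duplicates were removed is not given in the sources used here. Genes with close paralogs or overlapping partners are uncertain, since fragments were counted without regard to strand. Each file held 38243 genes, 36964 with a symbol. The filter kept 11631 genes with over 1 FPKM in 3 or more of the 6 condylar libraries, with FPKM from all counted fragments and the exon length of the files, and tested with limma 3.58.1 (TMM, voom, eBayes) in R 4.3.3 with Benjamini-Hochberg adjustment. This follows the study's methods, with spread taken from these 6 libraries. Interactions used all 18 libraries and 6 groups, treating the tissues of an embryo as independent. Alternatives were edgeR 4.0.16 quasi-likelihood, DESeq2 1.42.0, other scaling factors, filters and weights, a replicate block, and leaving out libraries. Scripts were tested on simulated data.

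Sources differed in what they cover: the study's methods describe the capture of bone and MC, and the condylar capture is described in the labels. The members of the comparison and the 27 gene lists were chosen with earlier results of these data known. The genes named were Fgfr2, the 5 with the smallest p in each direction (none passed), the member with the smallest p and the 2 highest per length of each list, up to 3 genes with the smallest adjusted p per interaction, and Enpp1, Ank, Csf1r, Itgb3 and Mki67. Further list members were chosen after their values were seen. The result for 1 gene that the rule names is not reported here. The reference codon was read from GENCODE transcripts on the same build, and 1 floor of 3 fragments per group was used for a group at 0. Figures were drawn with matplotlib 3.10.9.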

Additional observations from a re-analysis of the deposited data

How the results depend on the processing

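No gene passed under the other scaling factors, filters, weights and eBayes settings, with all 18 libraries, without mitochondrial genes and Gm42418, after a length adjustment (added after seeing the data), or when 1 library was left out (0 to 0 genes). Unadjusted p below 0.05 ranged from 218 genes without Fgfr2+/+ replicate 2 to 762 without Fgfr2+/S252W replicate 3, with 965 without a filter, 1044 with quality weights, 754 with the replicate block and 1082 without both replicates 3. DESeq2 passed 1 gene (Mylpf, -4.19). Without both replicates 3, added after seeing the data, 2 passed, Gnas (-1.65) and Neat1 (-1.39), from 2 libraries a side. The replicate block, which treats equal numbers as pairs, passed 6 genes: Gnas (-1.69), Unc5c (1.14), Tnc (0.86), Mylpf (-3.73), Enpp1 (1.22) and Chad (1.83). Deviations of equally numbered libraries correlated at 0.067, 0.087 and 0.28, and those of unequally numbered ones at -0.20 to 0.17. These values do not decide whether the numbers are pairs. The labels name no pairs, so the main fit used none, and the cause of the 6 calls was not tested. Both interactions stayed at 0 genes in the settings run for them: the embryo as a random block, edgeR, the replicate block, the filterByExpr filter and 1 library left out.

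Estimates of some named genes changed sign in some settings, none of them past the threshold, and the cause was not tested. With upper-quartile factors these were Col2a1 (-0.017) and Frzb (-0.021). With sample quality weights these were Col2a1 (-0.047), Ibsp (-0.14), Panx3 (0.0020), Frzb (-0.10), Timp3 (0.037), Gapdh (0.11) and Acta2 (0.32). Without both replicates 3 these were Col2a1 (-0.045), Sox9 (0.17), Ibsp (-0.23), Panx3 (0.046), Sparc (-0.022), Mgp (0.071), Frzb (-0.16), Timp3 (0.074), Ldha (0.16), Gapdh (0.19), Hspa5 (0.061) and Acta2 (0.45). With the length adjustment these were Col2a1 (-0.024), Panx3 (0.0063), Col12a1 (-0.032), Gapdh (0.049), Hsp90b1 (0.0033) and Acta2 (0.0029). Without a filter these were Panx3 (0.0077), Gapdh (0.022), Hsp90b1 (0.025) and Hspa5 (0.029). In edgeR these were Alpl (0.18), Gapdh (0.022), Hspa5 (0.040), Egr1 (0.37) and Hbb-bs (-0.055). In DESeq2 these were Alpl (0.19), Gapdh (0.024), Hsp90b1 (0.00045), Hspa5 (0.042), Egr1 (0.40) and Hbb-bs (-0.052). With the replicate block these were Gapdh (0.0020) and Egr1 (0.065). Leaving out 1 library gave these ranges across 0: Col2a1 (-0.10 to 0.11), Sox9 (-0.32 to 0.14), Ibsp (-0.60 to 0.47), Panx3 (-0.088 to 0.066), Sparc (-0.17 to 0.35), Alpl (-0.70 to 0.36), Col12a1 (-0.12 to 0.41), Mgp (-0.78 to 0.36), Itgb3 (-0.25 to 1.21), Nfatc1 (-0.31 to 0.059), Frzb (-0.31 to 0.20), Wif1 (-0.31 to 0.12), Timp3 (-0.15 to 0.12), Pcna (-0.16 to 0.28), Ldha (-0.43 to 0.23), Gapdh (-0.14 to 0.23), Hsp90b1 (-0.21 to 0.18), Hspa5 (-0.36 to 0.33), Egr1 (-1.12 to 0.58), Cdh5 (-0.66 to 0.24), Cspg4 (-0.24 to 0.054), Acta2 (-0.54 to 0.28), Hba-a1 (-0.15 to 2.22), Hbb-bs (-0.53 to 1.22) and Penk (-0.39 to 0.054).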

Other observations

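The genes in this paragraph were picked after their values were seen, because an alternative fit passed them. Gnas (ENSMUSG00000027523, chr2:174284320-174346744 of mm10, plus strand), the imprinted gene of the stimulatory G protein that carries PTHrP receptor signals, was at 34.0, 27.7 and 7.69 CPM in the mutant and 82.2, 114 and 30.4 CPM in littermates. Both replicates 3 were the lowest of their genotype, and the genotypes overlapped (log2 fold change -1.63, 95% CI -2.92 to -0.34, limma adjusted p = 0.998). Neat1, the long noncoding RNA of nuclear paraspeckles, was at 1639, 2776 and 2247 CPM and 5565, 5506 and 2449 CPM. The 2 highest values were those of littermate replicates 1 and 2, and replicate 3 was among the mutant values (-0.96, 95% CI -1.65 to -0.26). Unc5c, a netrin receptor, was at 86.1, 68.3 and 42.8 CPM in the mutant and 42.3, 28.3 and 19.5 CPM in littermates, without overlap (1.16, 95% CI 0.45 to 1.86).

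Of 77 cytosolic ribosomal protein genes tested, 0 passed, 3 had an unadjusted p below 0.05, beside 3.89% of all genes, and 27 were above 0, with a median log2 fold change of -0.068. Of 27 mitochondrially encoded genes, 0 passed and 17 were above 0, with a median of 0.093. Genes sorted by exon length into 4 classes of equal size had medians of -0.14, -0.033, 0.0069 and 0.069 from the shortest to the longest, so short genes had lower estimates in the mutant than long ones. The length adjustment left 0 genes past the threshold and 417 at an unadjusted p below 0.05.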
